A study of Sus scrofa with 35 samples.

Results

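The superoxide dismutases SOD1, SOD2 and SOD3 and catalase (CAT) were followed in a back muscle of castrated male growing pigs, the longissimus dorsi. Members were the non-control probes that the array annotation names for one of these 4 genes, in any case of letters, and each probe was kept apart from the others. They numbered 25 of 60305 probes, namely 5 for SOD1, 9 for SOD2, 1 for SOD3 and 10 for CAT. The pigs were of the Creole or the Large White breed or of their F1 cross, and were slaughtered at thermoneutrality (TN) or after heat stress (HS). Each breed had 6 arrays at TN and 6 at HS, except F1 at HS with 5, which gave 35 arrays of 1 muscle sample each. For TN the labels gave 24 °C. For HS they gave 30 °C, but 32 °C over 5 days in their protocol text. Per the study's methods, the animals came as littermates in a few blocks per breed, and the TN pigs were killed earlier than the HS pigs, ahead of the warming. Litter, pen and slaughter day are not in the labels. By the study's design each pen and each slaughter day belonged to a single temperature. Effects of pen and of slaughter day therefore cannot be told apart from temperature. Values are log2 of the quantile-normalised spot intensity, and a probe was called at an adjusted p-value below 0.05 (limma, Benjamini-Hochberg over all probes tested).

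Superoxide dismutases convert superoxide, the by-product of respiration and of oxidase enzymes, to hydrogen peroxide and oxygen. SOD1 is the copper and zinc enzyme of the cytosol, SOD2 the manganese enzyme of the mitochondrial matrix, and SOD3 the copper and zinc enzyme secreted to the extracellular matrix. Catalase, a haem enzyme mainly of peroxisomes, splits hydrogen peroxide to water and oxygen. SOD2 is also known as a gene induced through NF-kB by inflammatory cytokines. In skeletal muscle, whose mitochondria can produce much superoxide, SOD2 and CAT are known to be more abundant in oxidative than in glycolytic fibres.

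In the RefSeq annotation of the pig assembly Sscrofa11.1, SOD1 lies at chr13:195326573-195335273, SOD2 at chr1:7679352-7689564, SOD3 at chr8:18796633-18802156 and CAT at chr2:26493664-26533881. The probes themselves, each of 60 bases, were not placed on a genome. Of the 25 probes, 23 passed the filter on dim signals, and all 23 were well above background on all 35 arrays, so none entered through a single group. The exceptions were the SOD3 probe and 1 SOD2 probe, O14696.

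For SOD2, stretches of 5 probes are shown because probes of this gene did not all give the same breed difference. The part of the sequences in this was not tested. A_72_P503136 and A_72_P341278 carried the same 60 bases at separate spots. A_72_P669424 covered 52 of those bases and differed from them by 1 substitution, G41T (position counted from 1 at the 5′ end of A_72_P503136), and by 1 base that it lacked. The capitals mark the stretch that holds both differences.
A_72_P503136: ataaggtcctgGAGAGctttcatt
A_72_P341278: ataaggtcctgGAGAGctttcatt
A_72_P669424: ataaggtcctgTAGActttcatt

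A_72_P444413 was designed from another SOD2 transcript record, and O14696 was printed on the array on the opposite strand. Read on the strand of A_72_P444413, the bases of O14696 matched it over 31 positions with 1 substitution. The capitals below mark the 6 letters AATAAA, known as a polyadenylation signal where they stand near a transcript end. These letters were in 2 of the 25 member probes as printed, the other being the SOD1 probe A_72_P733208, and on the opposite strand in 1, O14696. Among all 60305 probes, 10.3% held them as printed and 4.32% on the opposite strand.
A_72_P444413: ttctgtagagagaaAATAAAgactcttgtg
O14696, opposite strand: ctgtagagagaaAATAAAgacttttgtgaa

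Over the breeds, heat stress went with a small rise in SOD1 at 2 of 5 probes, a small fall in SOD2 at 4 of 8 probes, and no called difference at any of the 10 CAT probes. The rises were 0.18 and 0.17 on the log2 scale and the falls ran from 0.22 to 0.29. Across the whole array 16.0% of 41517 probes were called in this comparison, 7.73% higher and 8.30% lower in HS, so that 6 of 23 member probes is a share to be read against a broad shift. The median change of the 23 member probes was -0.06, against -0.02 over all probes tested. In bulk muscle, fewer cells of a type and less RNA per cell cannot be told apart.

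**Figure D1:**
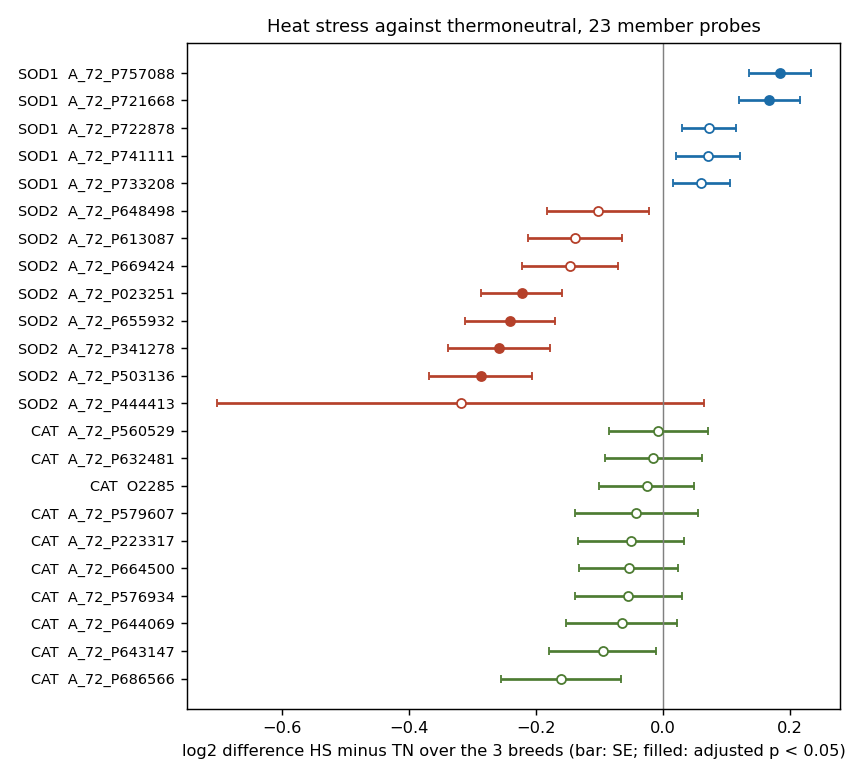
Log2 difference HS minus TN over the 3 breeds for each of the 23 member probes, with its SE as a bar. Filled points had an adjusted p-value below 0.05: the 5 SOD1 probes lie above 0, the 8 SOD2 probes below it, and the 10 CAT probes between -0.16 and -0.01 with none filled.

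The SOD1 probe A_72_P757088 ranged in Creole from 13.99 to 14.41 at TN (median 14.16) and from 14.21 to 14.36 at HS (median 14.30). In F1 it ranged from 13.97 to 14.32 at TN (median 14.12), and its 5 HS arrays read 14.10, 14.19, 14.34, 14.35 and 14.36. In Large White it ranged from 13.74 to 14.22 at TN (median 13.97) and from 14.18 to 14.31 at HS (median 14.25). Every HS array but the F1 array at 14.10 lay above the TN median of its breed, and the ranges overlapped in all 3. The difference HS minus TN was 0.18 ± 0.05 (SE, 17 HS and 18 TN arrays, limma adjusted p = 0.0096), a fold of 1.14, and 16 of 17 HS arrays were above the TN mean of their breed.

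The brightest SOD1 probe, A_72_P721668, was 0.17 ± 0.05 higher in HS (SE, limma adjusted p = 0.015), a fold of 1.12, and again 16 of 17 HS arrays exceeded the TN mean of their breed. Its group means ran from 14.67 ± 0.07 (SD, n = 5) in F1 HS through Creole HS, Large White HS, Creole TN and F1 TN to 14.41 ± 0.19 (SD, n = 6) in Large White TN. The HS groups took the top of this order, but no neighbours in it differed by more than the larger of their SDs. Both called probes lie on 1 transcript record, at listed positions 233 and 470. The other 3 SOD1 probes, all from a second transcript record, were 0.06 to 0.07 higher in HS with none called. SOD1 thus had called and uncalled probes, with 1 sign at all 5.

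The SOD1 calls depended on the scaling of the arrays. HS arrays were brighter before normalisation, with a mean 75th percentile of log2 intensity of 9.24 ± 0.24 (SD, n = 17) against 9.05 ± 0.17 (SD, n = 18) at TN. When arrays were scaled to that percentile, the 2 SOD1 differences were 0.08 and 0.05 and neither was called (adjusted p = 0.22 and 0.43), nor was either with the processed signal or with array brightness as a covariate (adjusted p from 0.054 to 0.43). A_72_P721668 was also not called with median scaling (0.13, adjusted p = 0.081) or spike-in scaling (0.20, adjusted p = 0.083). All 5 probes stayed above 0 in the 13 alternatives and with any 1 array left out, and the 2 calls held with any 1 array left out. Within slides 1 to 4, each of 8 arrays, A_72_P757088 differed between HS and TN by 0.18, 0.04, 0.37 and 0.21. Slide 5, with 3 arrays, gave no value of its own.

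**Figure D2:**
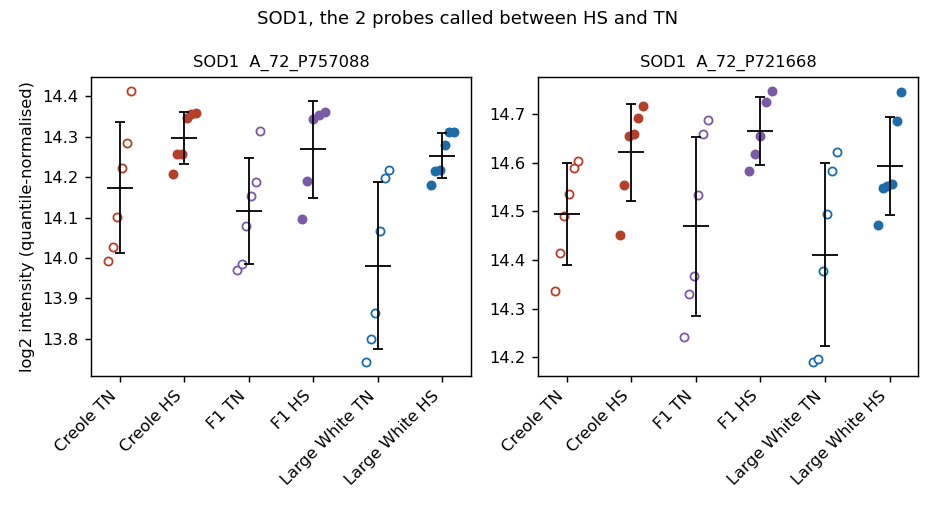
Quantile-normalised log2 intensity of the SOD1 probes A_72_P757088 and A_72_P721668 in each array (points, open for TN and filled for HS), with the mean and SD of each group in black; the vertical axes do not start at 0. HS means lie above TN means in each breed, by 0.12 to 0.27 at A_72_P757088, and the ranges overlap.

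SOD2 fell at the probes A_72_P503136, A_72_P341278, A_72_P655932 and A_72_P023251, which stem from 2 transcript records. A_72_P503136 ranged in Creole from 12.85 to 13.56 at TN (median 13.26) and from 12.62 to 13.16 at HS (median 13.05). In F1 it ranged from 13.10 to 13.67 at TN (median 13.21), and its HS arrays read 12.71, 12.87, 13.12, 13.12 and 13.19. In Large White it ranged from 13.17 to 13.81 at TN (median 13.65) and from 13.03 to 13.84 at HS (median 13.28). HS arrays were mostly low and TN arrays mostly high, with ranges that overlapped in each breed, and the Large White array at 13.84 was the highest of all although it was an HS array. The difference HS minus TN was -0.29 ± 0.08 (SE, limma adjusted p = 0.015), and 16 of 17 HS arrays were below the TN mean of their breed.

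A_72_P341278, the same sequence at another spot, gave -0.26 ± 0.08 (adjusted p = 0.025). Its reading was higher than that of A_72_P503136 by a near-constant amount in each array, since the difference between the spots was -0.24 ± 0.05 (SD, n = 35). Its group means ran from 13.21 in Creole HS to 13.81 in Large White TN, with SDs of 0.18 to 0.31. These 2 probes are 1 measurement made at 2 spots and not independent support for each other. A_72_P655932 was at -0.24 ± 0.07 (SE, adjusted p = 0.018), with 16 of 17 HS arrays below their TN mean, and A_72_P023251 was at -0.22 ± 0.06 (adjusted p = 0.016), with 15 of 17. A_72_P655932 ran from 9.77 to 10.30 at TN and from 9.41 to 10.32 at HS, and A_72_P023251 from 11.37 to 12.07 and from 11.30 to 12.04, so that HS and TN overlapped at both.

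The other 4 SOD2 probes tested had differences of -0.10 to -0.32 and were not called. The largest of these, -0.32 ± 0.38 at A_72_P444413, came with the widest error and lay between -0.52 and -0.20 with 1 array left out, at -0.52 without Large White TN replicate 6, -0.21 without F1 TN replicate 3 or Creole TN replicate 1, and -0.20 without Creole TN replicate 6. All 8 were below 0 in the 13 alternatives and with any 1 array left out, and the 4 calls held with any 1 array left out. With arrays scaled to the spike-in controls, none of the 4 was called, and the values were -0.20, -0.19, -0.08 and -0.09 in the order in which the probes were named above. A_72_P655932 also lost its call with median scaling and the brightness covariate (adjusted p = 0.17 and 0.066), A_72_P023251 with the former (0.12), and A_72_P341278 with the latter and without a breed term (0.059 and 0.063). Within slides 1 to 4, A_72_P503136 differed between HS and TN by -0.22, -0.26, -0.38 and -0.53.

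Catalase showed no called change. The brightest CAT probe, A_72_P632481, had group means from 13.46 ± 0.15 (SD, n = 6) in Large White TN to 13.20 ± 0.20 (SD, n = 6) in F1 TN, and no neighbours in the order of the 6 groups differed beyond their spread. Its HS minus TN difference was -0.02 ± 0.08 (SE, adjusted p = 0.92). The 10 probes had differences from -0.16 to -0.01, and the lowest adjusted p was 0.25, at A_72_P686566. The negative sign did not hold in every setting. With spike-in scaling, and with the mean of leukocyte markers as a covariate, 9 of the 10 were above 0. With array brightness as a covariate 4 were above 0, and with median scaling 3. All 10 were below 0 in 28 of the 35 fits that left out 1 array. CAT probes moved together, with a median Pearson r between pairs of 0.88 over the 35 arrays, as a description of probes that in part overlap.

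SOD3 could not be followed. Its member probe, O6249, annotated from a human transcript, was well above background on 16 of 35 arrays and on at most 4 arrays of a group, and it was not tested. It read between 4.97 and 6.10 on all but 1 array, the exception being Creole HS replicate 2 at 7.33. A second probe, A_72_P035826, which the annotation gives under LOC780439 and RefSeq under SOD3, was outside the membership rule and was well above background on 6 of 35 arrays. The SOD2 probe on the opposite strand, O14696, was well above background on 4 arrays and was not tested either.

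Within each breed no member probe was called between HS and TN (limma, 0 of 23), with 3 probes in Creole, 4 in F1 and 2 in Large White at an unadjusted p below 0.05. Over the whole array, 8946, 3444 and 6893 of 41517 probes were below that unadjusted p in the same order. At the adjusted threshold, 1.91% of all probes were called in Creole and 0.00482% in each of F1 and Large White. A_72_P757088 of SOD1 differed by 0.12 ± 0.08 in Creole, 0.15 ± 0.09 in F1 and 0.27 ± 0.08 in Large White (SE). A_72_P503136 of SOD2 differed by -0.28 ± 0.14, -0.32 ± 0.15 and -0.26 ± 0.14 in the same order. The 3 SOD2 values lay within 1 SE of each other. The CAT probes were all below 0 in Creole and in Large White and all above 0 in F1, from 0.01 to 0.13, with SEs of 0.13 to 0.18 in F1. These signs turned with single arrays: without F1 TN replicate 2, 4 of 10 were above 0 in F1 (-0.08 to 0.06), and without Large White HS replicate 5, 6 of 10 were above 0 in Large White. The breed by temperature interaction was called at no member probe and at 0% of all probes (limma, lowest adjusted p over all probes 0.96), with 1593 of all probes and no member at an unadjusted p below 0.05.

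Breeds differed at SOD2 only by some of its probes. Creole minus Large White was -2.03 at A_72_P444413, -0.36 at A_72_P503136 and -0.37 at A_72_P341278, all lower in Creole, while the other 5 SOD2 probes tested differed by -0.05 to 0.10 with none called. Over the whole array 3.64% of probes were called in this comparison, 1.73% higher and 1.92% lower in Creole, against 3 of 23 member probes, of which 2 share a sequence. No SOD1 and no CAT probe was called. The median difference of the 23 member probes was -0.15, against 0.01 over all probes tested.

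**Figure D3:**
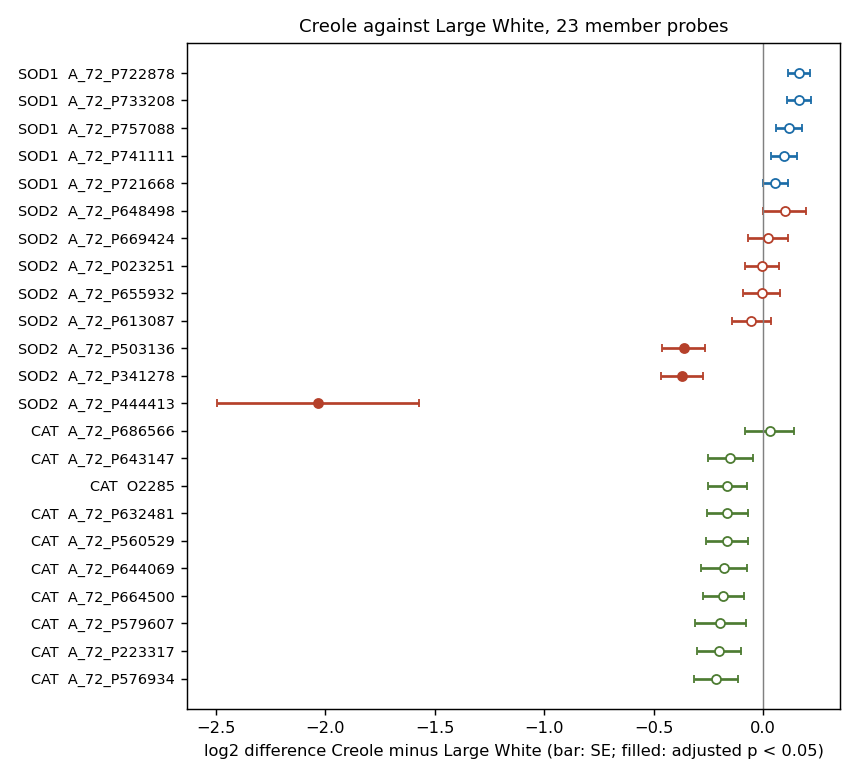
Log2 difference Creole minus Large White, adjusted for temperature, for each of the 23 member probes, with its SE as a bar. Filled points had an adjusted p-value below 0.05: A_72_P444413 stands at -2.03, A_72_P503136 and A_72_P341278 near -0.37, and the other SOD2 probes lie near 0.

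A_72_P444413 in Creole ranged from 7.59 to 11.06 at TN (median 8.56) and from 7.88 to 10.62 at HS (median 8.70). In F1 it ranged from 7.78 to 11.26 at TN (median 9.38), and its HS arrays read 7.68, 7.84, 8.90, 8.96 and 10.53. In Large White it ranged from 8.04 to 11.93 at TN (median 11.74) and from 10.53 to 11.67 at HS (median 10.89). Large White arrays were high apart from replicate 6 at TN, whose 8.04 stood 2.91 below the next, while Creole and F1 arrays spread over most of the scale. Creole and Large White overlapped at TN and, by 1 Creole array, at HS.

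The difference Creole minus Large White was -2.03 ± 0.46 (SE, limma adjusted p = 0.0082), or 0.244 times the Large White level, and 11 of 12 Creole arrays were below the Large White mean. It was -1.96 ± 0.66 at TN and -2.11 ± 0.66 at HS, neither called alone (adjusted p = 0.16 and 0.25), where 0.997% and 0.296% of all probes were called. With replicate 6 of Large White TN left out, the value over both temperatures was -2.33 and the value at TN was -2.56, which was then called (adjusted p = 0.043). Within slides 1 to 4 it was -2.65, -3.41, -2.75 and -1.37, and it was called in the 12 alternatives and with any 1 array left out.

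At this probe no F1 comparison was called. F1 minus Creole was 0.25 ± 0.47 (SE, adjusted p = 0.97), F1 minus the parental midpoint -0.77 ± 0.41 (adjusted p = 0.73) and F1 minus Large White -1.79 ± 0.47 (adjusted p = 0.078). The last was called once replicate 6 of Large White TN was left out (-2.09, adjusted p = 0.015) and also without replicate 2 of F1 TN (-1.95, adjusted p = 0.049). No member probe was called in any of the F1 comparisons, in which 0.525% of probes differed from Large White, 0.477% from Creole and 0.246% from the midpoint. At an unadjusted p below 0.05 there were 5 member probes against Large White and none in the other F1 comparisons. Over the whole array, 4371 of 41517 probes were below it against Large White, 3685 against Creole and 3053 against the midpoint.

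The spread of A_72_P444413 between pigs of 1 group was wide. Its SD within groups was 1.21, against a median of 0.23 over all 41517 probes tested, and 0.342% of those probes had a larger one. The other 7 SOD2 probes had SDs within groups of 0.19 to 0.25. SOD1 was the steadiest member, with SDs of 0.12 to 0.14.

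**Figure D4:**
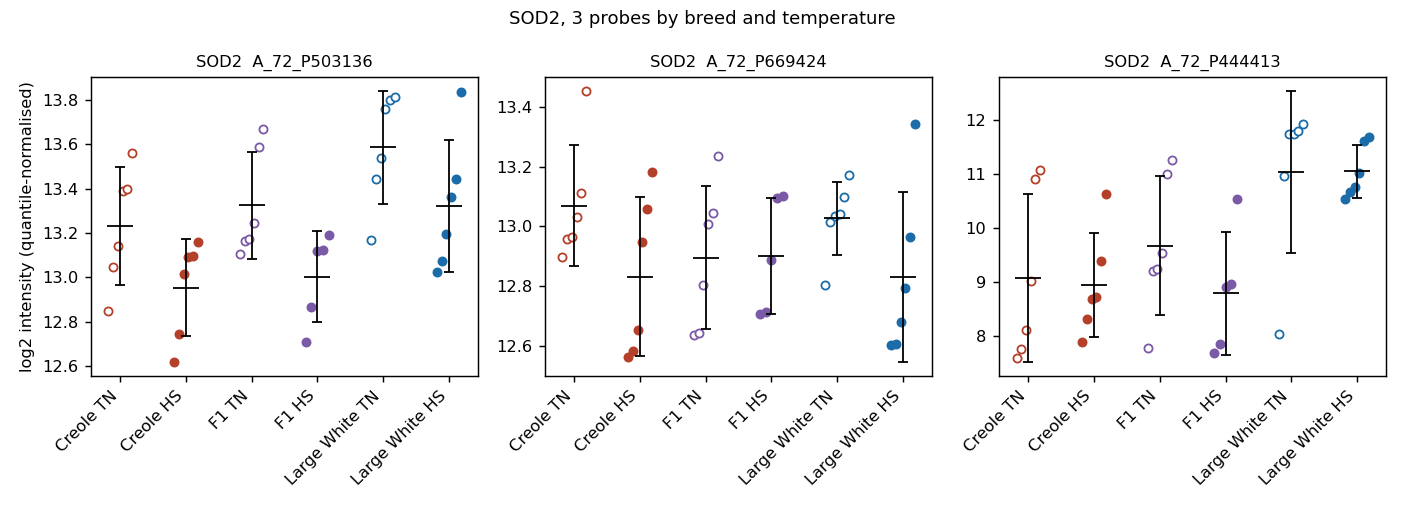
Quantile-normalised log2 intensity of 3 SOD2 probes in each array (points, open for TN and filled for HS), with the mean and SD of each group in black; each panel has its own vertical axis, which does not start at 0. A_72_P503136 and A_72_P444413 are higher in Large White, A_72_P669424 has nearly equal levels in the breeds, and A_72_P444413 spans from 7.59 to 11.93.

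A_72_P503136 and A_72_P669424 did not give the same breed difference. Bases 1 to 53 of the first align with bases 9 to 60 of the second. The marked differences lie in this overlap, and the remaining end bases of each probe lie outside it. Creole minus Large White was -0.36 ± 0.10 at the first (SE, adjusted p = 0.029) and 0.02 ± 0.09 at the second (adjusted p = 0.95). Within an array, A_72_P503136 minus A_72_P669424 was 0.14 ± 0.20 in Creole (SD, n = 12), 0.28 ± 0.28 in F1 (SD, n = 11) and 0.52 ± 0.21 in Large White (SD, n = 12). The ranges were -0.06 to 0.51, -0.02 to 0.79 and 0.13 to 0.77, so arrays of each breed were found over much of the same scale. The means at TN and then HS were 0.16 and 0.12 in Creole, 0.43 and 0.10 in F1, and 0.56 and 0.49 in Large White. The size of such a difference has no meaning between probes of unequal binding, and only its change from array to array is described.

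Arrays with a high difference between these 2 probes also read high at A_72_P444413. Over the 35 arrays Pearson's r was 0.86 and Spearman's rho 0.82, and r was 0.85 without the 2 arrays farthest from the median difference. Within Creole r was 0.91 (n = 12), within F1 0.72 (n = 11) and within Large White 0.84 (n = 12). The pair was chosen after its values were seen and the pigs include littermates, so no p-value is given. By contrast, A_72_P444413 had an r of -0.35 to 0.17 with the 5 SOD2 probes other than these 2 spots of 1 sequence, and those 5 had an r of 0.73 to 0.92 among themselves.

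**Figure D5:**
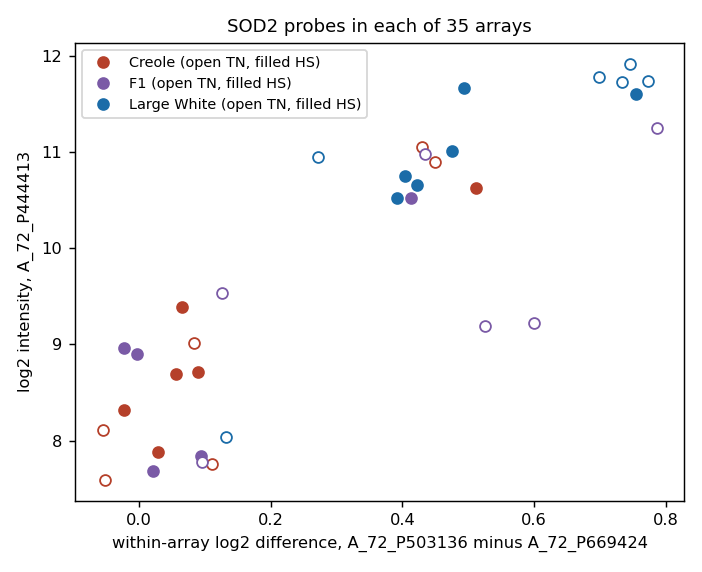
Each point is 1 of 35 arrays: the horizontal axis is the log2 difference between the SOD2 probes A_72_P503136 and A_72_P669424 within the array, the vertical axis the log2 intensity of A_72_P444413, with breed by colour, open points for TN and filled points for HS. Most Large White points lie at the upper right. On the horizontal axis Creole points run from -0.06 to 0.51 and F1 points from -0.02 to 0.79, and r was 0.86 over all arrays.

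SOD1 and CAT had smaller, uncalled breed differences. All 5 SOD1 probes were higher in Creole than in Large White, by 0.06 to 0.17, and the lowest adjusted p was 0.066, at A_72_P722878, where 12 of 12 Creole arrays exceeded the Large White mean. That probe was called with array weights and with normexp background correction (0.16 and 0.17, adjusted p = 0.044 and 0.049). Of the 10 CAT probes, 9 were lower in Creole, by 0.15 to 0.22, and the lowest adjusted p was 0.29, at A_72_P576934. CAT had 2 probes called, at -0.27 and -0.23, once the mean of the leukocyte markers was a covariate.

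The other genes of superoxide and peroxide metabolism are given by the brightest probe of each gene, in lists chosen with earlier results known. Of all 9151 genes so represented, 18.3% were called between HS and TN. Among sources of superoxide and peroxide, 14 of 16 genes were measured, 3 were called higher and 4 lower in HS, with a median of 0.02 against -0.03 over all genes. The higher ones were parts of the phagocyte NADPH oxidase, namely CYBA at 0.93 ± 0.30 (SE, adjusted p = 0.033), NCF4 at 0.87 ± 0.21 (adjusted p = 0.0058) and NCF1 at 0.77 ± 0.18 (adjusted p = 0.0036). The lower ones were the mitochondrial monoamine oxidase MAOB at -0.38 and the respiratory chain subunits NDUFS1 at -0.37, UQCRFS1 at -0.32 and SDHA at -0.26 (adjusted p from 0.0012 to 0.0055).

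Among genes that deliver metals, fold or import the 4 enzymes, 11 of 14 were measured, 1 was called higher and 2 lower. HSPE1, the co-chaperonin of the mitochondrial matrix, rose by 0.30 ± 0.07 (SE, adjusted p = 0.0024), while the copper exporter ATP7A was at -0.25 and the manganese exporter SLC30A10 at -0.18. CCS, the copper chaperone of SOD1, had a difference of -0.04 (adjusted p = 0.82). Of 16 measured of 18 other removers of peroxide, TXN (thioredoxin) was called higher, at 0.60 ± 0.20 (SE, adjusted p = 0.034), and the mitochondrial PRDX3 and the endoplasmic reticulum PRDX4 were called lower, at -0.19 and -0.24. GPX1 and PRDX1 had differences of 0.43 and 0.40 that were not called (adjusted p = 0.059 and 0.079).

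Of the 16 regulators, all measured, FOXO1, a transcription factor known to act on SOD2 and CAT, was called lower, at -0.26 (adjusted p = 0.026). Of 13 measured of 15 cytokine and NF-kB response genes, NFKBIA, the inhibitor of NF-kB, was at -0.27 and the chemokine CXCL2 at -0.60, both called lower, and none was called higher. Between Creole and Large White, 3.76% of the 9151 genes were called. These lists had no called gene among the sources or the delivery genes, PRDX2 at -0.38 among the removers, the mitochondrial deacetylase SIRT3, known to act on the SOD2 protein, at -0.56 among the regulators, and SOCS3 at -1.69 among the cytokine response genes (adjusted p = 0.012, 0.00045 and 0.022).

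Markers of other cell types moved with temperature beside the member probes. Of 11 measured of 12 leukocyte and macrophage markers, 10 were higher in HS and 4 were called, AIF1, CSF1R, TYROBP and LAPTM5, with a median of 0.74. Their summed intensity ran from 4489 to 28171 at TN and from 9940 to 42008 at HS, and the marker least often well above background, S100A8, was so on 32 of 35 arrays. With the mean of these markers as a covariate, the 4 SOD2 calls held (-0.26 to -0.31) and the 2 SOD1 calls did not (0.14 and 0.12, adjusted p = 0.091 and 0.13). In that fit 3009 of 41517 probes were called over the whole array, against 6654 without the covariate. Of the 10 CAT probes, 9 were above 0 there and none was called. Of 4 measured of 6 erythroid markers, HBB fell by 1.21 and AHSP by 0.44, while ALAS2 at -0.23 (adjusted p = 0.10) and SLC4A1 at 0.37 (adjusted p = 0.12) were not called. The summed intensity ran from 1636 to 4445 at TN and from 2161 to 4871 at HS, and the part of blood in the results was not tested. Of the fibroblast, endothelial and smooth muscle markers 1 gene each was called, COL3A1 higher, VWF lower and DES, which muscle fibres also express, higher, and no adipocyte marker was called. All 7 fibroblast markers were higher in HS (median 0.25) and 5 of 6 endothelial ones lower (median -0.21). Of the smooth muscle markers 4 of 6 were lower (median -0.02), and of the adipocyte ones 5 of 6 higher (median 0.04). Over all genes the median was -0.03 and 18.3% were called. The part of cell makeup in the member differences was not tested.

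The tissue label held against its markers. All 10 skeletal muscle markers, ACTA1 and CKM among them, were well above background on 35 of 35 arrays, and 1 was called between HS and TN, the calcium release channel RYR1, at -0.21 (adjusted p = 0.0499). Between Creole and Large White, 3 of 6 endothelial markers were called lower in Creole, and 2 of 7 connective tissue markers and 1 of 6 smooth muscle markers as well. No skeletal muscle, leukocyte, erythroid or adipocyte marker was called between the breeds, and the part of cell makeup in the SOD2 difference was not tested.

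The genes whose levels were most like those of each member, out of 9150, were listed by Pearson's r over the 35 arrays, as a description without a test. For SOD1 (A_72_P721668) these were LIMD1 at 0.82, CREG1 at 0.76, SELENOS at 0.75, AAMP at 0.74 and TMEM60 at 0.74, and with the 6 group means removed r was 0.63 to 0.70. For SOD2 (A_72_P341278) they were PLSCR3 at 0.71, COX15, IDH2 and NAT10 at 0.70 each and SRM at 0.69, falling to 0.49 to 0.61 with the group means removed. For CAT (A_72_P632481) they were CTDSPL at 0.75, GHR and AMN1 at 0.74 each, SNTB1 at 0.74 and CHRDL1 at 0.73. GHR, the growth hormone receptor, had an r of 0.83 with CAT once the group means were removed, the highest of these 5. For A_72_P444413 of SOD2 they were DCPS at 0.69, NUDT9 at 0.67, ADAT3 at 0.66, ATP9A at 0.64 and IGF2 at 0.63, with 0.41 to 0.47 after the group means were removed. The probes A_72_P444413 and A_72_P341278 had an r of 0.72 with each other over the 35 arrays. Their lists shared no gene, which says little because each list holds only 5 of 9150 genes.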

How the data were processed

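Per the labels, Cy3-labelled cRNA of each muscle sample was hybridised to a 1-colour Agilent porcine array, and the authors quantified the spots with Feature Extraction 10.10.1.1. The scanner files they deposited give the intensity of each spot, not log-transformed, and the authors also deposited a table of quantile-normalised log2 values for 40649 probes, used as an alternative. The median pixel intensity was quantile-normalised over the 35 arrays without background subtraction, log2 was taken, and 105 spots flagged as outliers were set to missing. No spot was saturated. A probe was kept (41517 of 60305) where some group had it well above background on 75% or more of its arrays. Before scaling, the 75th percentile of intensity ran from 425.5 to 785.4 between arrays, and the number of arrays limits the precision. Quantile normalisation sets all arrays to 1 distribution, so differences are relative to the other probes.

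Breed and temperature were fitted in an additive model, and group means in a second one, with limma 3.58.1 in R 4.3.3 and Benjamini-Hochberg adjustment at 0.05. Pen, slaughter day, sire and dam, which the study's methods model, are not in the labels, and p-values treat littermates as independent. On simulated data with 200 probes changed by 1 on the log2 scale among 41465, the temperature test recovered 99.0%, the Creole against Large White test 96.5%, the test within Creole 88.0% and the interaction test 73.0%. Most member differences were smaller than the simulated size. The 5 slides were fitted as a block, and slides 1 to 4 also singly, as values without a test. Alternatives were 3 other scalings, normexp background correction (offset 50), the processed signal, 2 other filters, slide as a block, array weights, array brightness or leukocyte markers as covariates, the authors' table, no breed term, and leaving out each array. The members and lists were chosen with earlier results of these data known.

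By rule, values were given for the brightest kept probe of each gene and for each called SOD2 probe, with levels in each group for some of them, and the other member probes were described by range and count. Other genes stand by their brightest kept probe, named through 6966 probe accessions in the RefSeq tables (Sscrofa11.1) and otherwise by the files. Gene positions are credited to that assembly, and SOD2 sequences were read from the deposited probe annotation, while SOD1 probe sequences are not reported here. Cell type markers were measured for muscle fibre, leukocyte and macrophage, erythroid, adipocyte, fibroblast, endothelium and smooth muscle.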

Additional observations from a re-analysis of the deposited data

Results flagged for a closer look

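Among 138 combinations of a tested member probe and a group, 12 held an array that stood apart from the others by Dixon's ratio of its gap to the group's range at the 95% level, where chance alone gives about 6.9. Of these, 8 were CAT probes in F1 TN replicate 2, which read lowest of its group at O2285 (ratio 0.837), A_72_P576934 (0.8), A_72_P560529 (0.789), A_72_P664500 (0.755), A_72_P643147 (0.741), A_72_P632481 (0.729), A_72_P223317 (0.681) and A_72_P644069 (0.653). At A_72_P632481 that array read 12.82 and the next 13.22. These probes in part overlap and moved together, so the 8 are not separate events.

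Large White TN replicate 6 was lowest at SOD2 A_72_P444413 (8.04, next 10.95, ratio 0.749) and at CAT A_72_P576934 (12.34, next 12.63, ratio 0.681). Large White TN replicate 1 was lowest at SOD2 A_72_P023251 (11.37, next 11.79, ratio 0.697), and Large White HS replicate 5 was lowest at SOD1 A_72_P741111 (12.18, next 12.41, ratio 0.642). The part of any 1 array in the calls is given by leaving it out.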

How the results depend on the processing

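Of the 23 member probes, 6 were called between HS and TN in the chosen fit, 3 with median scaling, 1 with spike-in scaling and 2 with array brightness as a covariate, and 6 with any 1 array left out. With 75th percentile scaling, the processed signal or the leukocyte covariate, 4 SOD2 probes and no SOD1 or CAT probe were called. Without a breed term, 3 SOD2 and 2 SOD1 probes were called. Between Creole and Large White 3 were called, 5 with the leukocyte covariate, and 2 to 4 with 1 array left out. With spike-in scaling or the processed signal, 2 SOD2 probes were called. With array weights or normexp correction, 3 SOD2 probes and 1 SOD1 probe were called. F1 minus Large White went from 0 to 1 with spike-in scaling, array weights and the leukocyte covariate, and was 0 to 1 with 1 array left out. Counts within breeds and at each temperature were 0 to 1 with 1 array left out, through CAT A_72_P686566 without Creole TN replicate 2 (-0.54 in Creole), and SOD1 A_72_P757088 (0.31 in Large White) and SOD2 A_72_P444413 (at TN) without Large White TN replicate 6. The F1 minus Creole, midpoint and interaction counts were 0 throughout. Over the whole array, 6654 calls between HS and TN became 6653 with median scaling, 4671 with spike-in scaling and 2092 with the brightness covariate. They became 3009 with the leukocyte covariate, 9320 with 75th percentile scaling, 7286 with the processed signal and 6308 without a breed term (5257 to 8558 with 1 array left out). Between Creole and Large White, 1513 calls became 920 with spike-in scaling and 1568 with the processed signal. They became 1963 with array weights, 1495 with normexp correction and 2251 with the leukocyte covariate (1210 to 1774 with 1 array left out).

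No called member reversed. The Creole minus Large White call of SOD2 A_72_P503136 was lost with spike-in scaling, with the processed signal (-0.45 and -0.36) and in 7 of 35 fits that left out 1 array, Creole TN replicates 3 and 5, Creole HS replicates 3 and 5, Large White TN replicates 1 and 4 or Large White HS replicate 5 (-0.35 to -0.31, adjusted p of at most 0.057). Uncalled differences near 0 changed sign. CAT A_72_P632481, HS minus TN, was 0.072 with spike-in scaling, 0.028 with the brightness covariate, 0.12 with the leukocyte covariate, and -0.046 to 0.016 with 1 array left out. SOD2 A_72_P669424, Creole minus Large White, was -0.033 with median scaling, -0.061 with spike-in scaling, and -0.019 to 0.067 with 1 array left out. The cause was not tested. No paired analysis was possible because replicate numbers follow the order of deposition and litters are not labelled.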
